A study of Homo sapiens with 10 samples.

Results

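Arachidonic acid, a fatty acid held in membrane phospholipids, is freed by cytosolic phospholipase A2 and then oxidized along 1 of several routes. The cyclooxygenases convert it to prostaglandin H2, from which terminal synthases make prostaglandin E2 and the other prostanoids, whereas lipoxygenases add oxygen to arachidonic or linoleic acid and give leukotrienes and hydroxy fatty acids. In stratified squamous epithelia the epidermal lipoxygenases also build the lipid barrier, and cyclooxygenase 2 is the form that growth factors and inflammatory signals induce. The genes described here are 10 enzymes of this pathway among the 58735 genes of the count table: PLA2G4A, the cyclooxygenases PTGS1 and PTGS2, the prostaglandin E synthases PTGES, PTGES2 and PTGES3, and the lipoxygenases ALOX5, ALOX12B, ALOXE3 and ALOX15B. They were chosen by gene name, and PLA2G4A was picked because its level had fallen so far in these libraries. Its values against the control are therefore a description, with no test.

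The RNA came from A253, an established human cell line derived from a squamous carcinoma of a salivary gland. The control (2 libraries) carried an sgRNA against dTomato, a fluorescent protein gene that human cells lack. Cl1 and Cl10 (2 libraries each) are DUSP1 clones in which a pair of sgRNAs, directed to the introns around exon 2, removed that exon, and per the study's methods both are heterozygous for the deletion. All 3 groups carried the puromycin-selected sgRNA vector and lentiCas9-Blast, and no drug or other agent was compared. DUSP1 encodes a dual-specificity phosphatase that inactivates MAP kinases, and the comparison asks what its loss does to expression in these tumor cells. Each DUSP1 group derives from 1 single cell, so what belongs to the deletion and what belongs to that cell's lineage cannot be told apart, and nothing in the labels says that the libraries of a group came from separate cultures, so the p-values measure only the spread between these libraries, which may be technical. Both clones were also compared with the same control libraries, so a deviation of a control library enters both fold changes.

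Libraries held between 47016495 and 70986593 counts. DUSP1 itself, counted over the whole gene and not over the deleted exon alone, had 751 and 637 normalized counts in the control (counts scaled by TMM to the mean library size), 307 and 348 in Cl1 and 494 and 414 in Cl10, so that every clone library lay below both controls. All 10 squamous epithelial markers were detected in every library, with a summed level of 13420 to 15419 CPM (counts scaled to a common library total), whereas 2 of 9 salivary acinar markers exceeded 3 counts, at 0.835 to 1.62 CPM in all. Leukocyte markers summed to 8.40 to 9.24 CPM in the control and 13.05 to 17.5 CPM in the clones, fibroblast markers to 44.9 to 51.1 CPM in the control, 46.5 to 48.4 CPM in Cl1 and 30.4 to 32.0 CPM in Cl10, and endothelial markers to 2.77 to 8.06 CPM over all libraries. Over 3 counts were found for 4 of 8 leukocyte markers in the control and 5 in the clones, for 3 or 4 of 8 fibroblast markers and for 2 or 3 of 5 endothelial markers, and the fibroblast marker LUM, the endothelial marker KDR and the acinar markers HTN1 and HTN3 were at 0 in every library. PTPRC, the pan-leukocyte marker and 1 of the 8, had 1.71 and 2.16 normalized counts in the control and 7.15 to 12.1 in the clones. In libraries of 47016495 counts or more, this is a small part of the summed leukocyte level. The other leukocyte markers are not given singly here. The part of other cell types in the results below was not tested.

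PLA2G4A encodes cytosolic phospholipase A2 alpha, the calcium-dependent enzyme that releases arachidonic acid. It stood at 1313 and 1187 normalized counts in the control, at 139 and 133 in Cl1 and at 14.7 and 20.3 in Cl10. The 3 groups did not overlap, and the libraries of a group lay close together. The mean fell from 1250 ± 89.0 (SD, n = 2) in the control to 136 ± 4.81 (SD, n = 2) in Cl1, 9.08-fold lower, and to 17.5 ± 3.92 (SD, n = 2) in Cl10, 71.1-fold lower. On the log2 scale these differences were -3.18 in Cl1 and -6.15 in Cl10, and Cl10 lay a further 2.97 log2 units under Cl1 (log2 fold change -2.97). In Cl10 the level rested on 15 and 17 reads, still above a floor of 3 counts, which covers counting error only. In bulk RNA, fewer cells that express a gene and less RNA in each cell cannot be told apart.

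**Figure D1:**
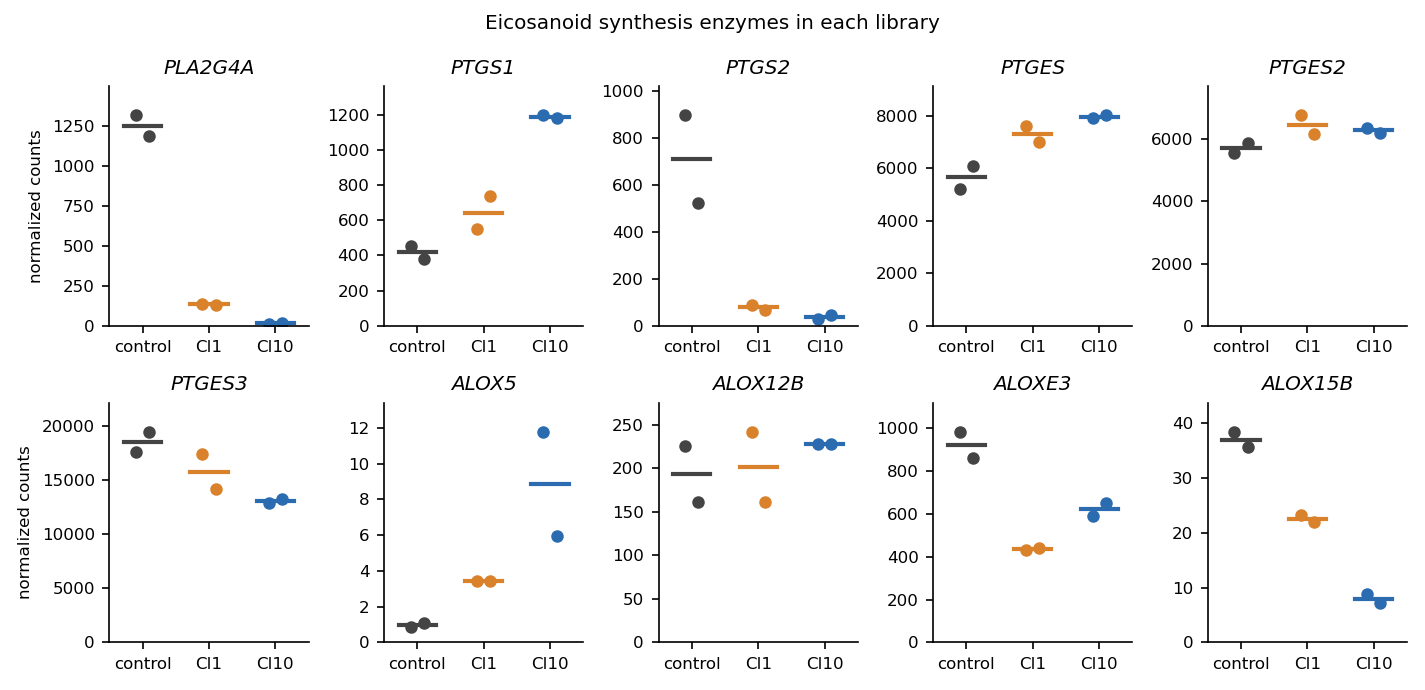
Normalized counts (TMM-scaled to the mean library size, linear axes from 0) of the 10 enzymes in each library, with control in grey, Cl1 in orange and Cl10 in blue; points are libraries and bars are means of 2. PLA2G4A and PTGS2 were low in all 4 clone libraries, PTGS1 rose from 382 to 454 in the control to 1182 to 1195 in Cl10, and ALOXE3 was lowest in Cl1.

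The cyclooxygenases moved in opposite directions. PTGS2, the inducible cyclooxygenase, had 896 and 523 normalized counts in the control, 89.5 and 68.1 in Cl1 and 27.5 and 45.3 in Cl10. The control libraries differed from each other more than for most of the enzymes, yet every clone library lay far below both, and both Cl10 libraries lay below both Cl1 libraries. PTGS2 fell 8.84-fold in Cl1 (log2 fold change -3.14, standard error 0.250, adjusted p = 3.52e-06 by the edgeR quasi-likelihood test with Benjamini-Hochberg adjustment) and 19.6-fold in Cl10 (-4.29, standard error 0.344, adjusted p = 0.000196, edgeR). The libraries of Cl10 were lower than those of Cl1 (log2 fold change -1.14, standard error 0.302, adjusted p = 0.00734, edgeR), and this difference no longer passed without Cl10 replicate 1, where it was -0.80.

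PTGS1, the cyclooxygenase that most tissues express without induction, had 454 and 382 normalized counts in the control, 550 and 737 in Cl1 and 1195 and 1182 in Cl10. All clone libraries exceeded both controls and the Cl10 libraries exceeded both Cl1 libraries. PTGS1 rose 1.55-fold in Cl1 (log2 fold change 0.63, standard error 0.168, adjusted p = 0.0158 by the edgeR quasi-likelihood test) and 2.87-fold in Cl10 (1.52, standard error 0.113, adjusted p = 0.000152, edgeR). Between the clones it was 0.90 log2 units higher in Cl10 (adjusted p = 5.9e-05, edgeR). The rise in Cl1 did not pass the threshold without Cl1 replicate 2, where it was 0.40.

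Since the cyclooxygenase transcripts differ in length, their balance was read per kilobase of exon (RPKM, computed from the counts and the exon length of each gene). This length joins the exons of all annotated transcripts of a gene and can exceed that of the transcript expressed. Shares and orders between genes depend on it. PTGS1 made up 32.5% and 40.9% of the summed cyclooxygenase RPKM in the control libraries, 85.3% and 91.1% in Cl1 and 97.6% and 96.1% in Cl10. PTGS2 was thus the more abundant transcript per length in the control libraries and the minor one in every clone library. The group IV phospholipases A2, the cytosolic family to which PLA2G4A belongs, were read the same way. PLA2G4A held 77.9% and 75.9% of that family's RPKM in the control, 21.95% and 18.3% in Cl1 and 3.18% and 4.45% in Cl10. PLA2G4F had the highest share in 3 of the 4 clone libraries and the second highest in Cl10 replicate 2, rising from 3.99% and 3.61% in the control to 36.9% and 36.3% in Cl1 and 43.2% and 38.3% in Cl10. PLA2G4E took 17.9% and 17.2% in Cl1, against 2.99% and 3.01% in Cl10 and 1.65% and 1.48% in the control. PLA2G4C held 9.37% and 11.7% in the control, 14.2% and 17.3% in Cl1 and 35.9% and 38.6% in Cl10, while its own level was lower in Cl1 (log2 fold change -0.65, adjusted p = 0.0217, edgeR) and close to the control in Cl10 (0.02, adjusted p = 0.9, edgeR). These shares carry the PLA2G4A values for which the gene was picked and are given as a description.

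**Figure D2:**
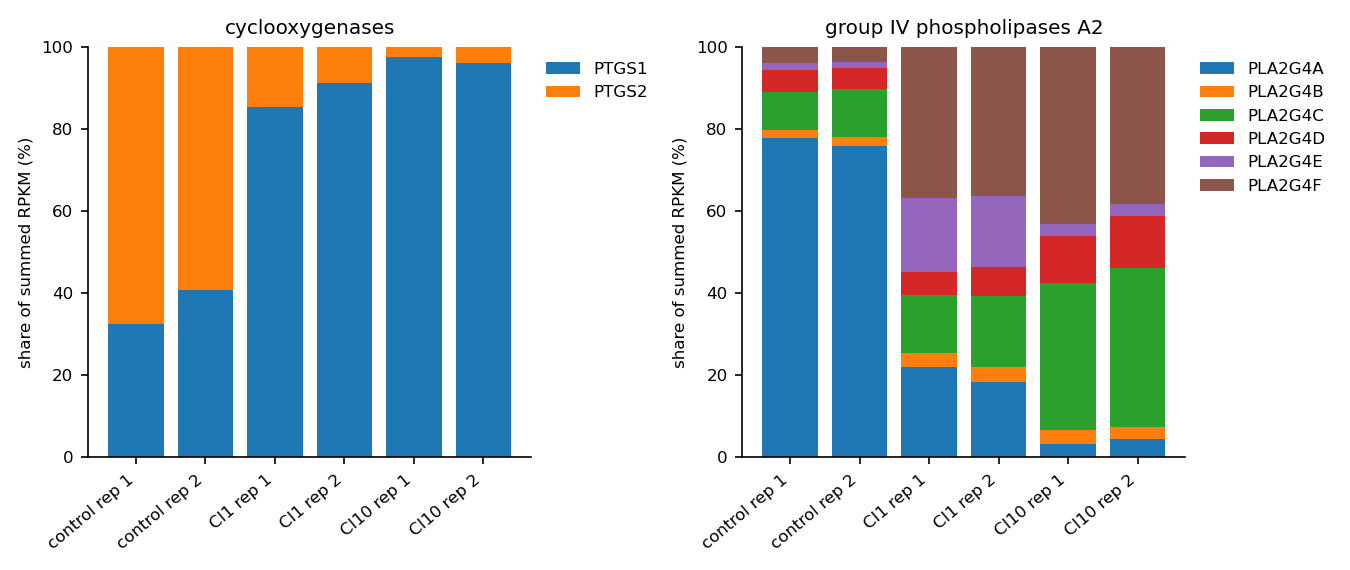
Share of the summed RPKM (%, stacked bars from 0 to 100) that each gene held in each library, for the cyclooxygenases (left) and the group IV phospholipases A2 (right). PTGS1 rose from 32.5% to 40.9% of cyclooxygenase RPKM in the control to over 85% in every clone library, and PLA2G4A fell from 77.9% and 75.9% of group IV RPKM in the control to 3.18% and 4.45% in Cl10, where PLA2G4C had a larger share at a level close to the control's (log2 fold change 0.02).

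The prostaglandin E synthases were the most abundant of the enzymes per kilobase of exon, and their log2 fold changes against the control lay between -0.49 and 0.51. PTGES, the inducible membrane-bound synthase that works with cyclooxygenase 2, had 5224 and 6093 normalized counts in the control, 7620 and 6999 in Cl1 and 7909 and 8015 in Cl10. Every clone library exceeded both controls. PTGES rose 1.31-fold in Cl1 (log2 fold change 0.38, adjusted p = 0.0342 by the edgeR quasi-likelihood test) and 1.42-fold in Cl10 (0.51, adjusted p = 0.00607, edgeR), and the difference between Cl10 and Cl1 did not pass (0.13, adjusted p = 0.0954, edgeR), although it did with scaling by library size alone (0.20) and without Cl1 replicate 1 (0.17). The rise in Cl1 fell short of the threshold without Cl1 replicate 1 (0.34), without Cl1 replicate 2 (0.43) and with scaling by library size alone (0.32), and the rise in Cl10 without Cl10 replicate 2 (0.50).

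PTGES2, a membrane-associated synthase, had 5569 and 5886 normalized counts in the control, 6759 and 6164 in Cl1 and 6366 and 6206 in Cl10, and it did not pass the test in either clone (log2 fold changes 0.19 and 0.15, adjusted p = 0.245 and 0.167, edgeR). PTGES3, the cytosolic synthase also known as the HSP90 co-chaperone p23, had 17660 and 19491 normalized counts in the control, 17449 and 14208 in Cl1 and 12949 and 13257 in Cl10. It fell 1.40-fold in Cl10 (log2 fold change -0.49, adjusted p = 0.00507 by the edgeR quasi-likelihood test) and did not pass in Cl1 (-0.22, adjusted p = 0.264, edgeR). The fall in Cl10 did not pass without Cl10 replicate 1 (-0.46) or without Cl10 replicate 2 (-0.51). The 50 tested genes nearest to PTGES3 on chromosome 12 gave medians of -0.53 (log2 fold change) in Cl10 and -0.15 in Cl1, so that PTGES3 in Cl10 lay with its neighbourhood, 0.042 log2 units above that median. PTGES3 has processed pseudogene copies, and how reads that match several copies were counted is not given in the sources used here, so its level is uncertain to that extent.

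Of the lipoxygenases, ALOXE3 and ALOX12B act in turn on linoleic acid esterified in ceramides of the epidermal barrier, and ALOX15B oxidizes arachidonic acid at carbon 15. ALOXE3 had 983 and 863 normalized counts in the control, 432 and 442 in Cl1 and 592 and 651 in Cl10. The 3 groups did not overlap and Cl1 was the lowest, the reverse of the order seen for PTGS2. ALOXE3 fell 2.09-fold in Cl1 (log2 fold change -1.06, adjusted p = 0.000131 by the edgeR quasi-likelihood test) and 1.47-fold in Cl10 (-0.56, adjusted p = 0.00715, edgeR), and it was 0.51 log2 units higher in Cl10 than in Cl1 (adjusted p = 0.00142, edgeR). The fall in Cl10 did not pass without Cl10 replicate 1 (-0.48).

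ALOX15B was a low gene, with 45 and 33 reads in the control, 27 and 19 in Cl1 and 9 and 6 in Cl10. In normalized counts these were 38.4 and 35.6, 23.2 and 21.9, and 8.83 and 7.15, so that the groups did not overlap. It fell 4.49-fold in Cl10 (log2 fold change -2.17, adjusted p = 0.00389 by the edgeR quasi-likelihood test), while the value in Cl1 did not pass (-0.69, adjusted p = 0.165, edgeR). The difference of -1.47 between the clones passed in edgeR (adjusted p = 0.0188) but not in DESeq2, nor without any 1 of the 4 clone libraries, where it lay between -1.63 and -1.34.

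ALOX12B had 226 and 162 normalized counts in the control, 242 and 162 in Cl1 and 229 and 228 in Cl10, and the spread within the control and within Cl1 exceeded the difference between them (log2 fold change 0.07 in Cl1, adjusted p = 0.844, and 0.24 in Cl10, adjusted p = 0.326, edgeR). Its sign in Cl1 turned with scaling by library size alone and without control replicate 2 or Cl1 replicate 1, and without control replicate 1 its value in Cl10 passed (0.50). The antisense RNA ENSG00000214999 overlaps ALOX12B. Since the strand setting of the counting is not given in the sources used here, reads of the 2 genes cannot be told apart. ENSG00000214999 had 295 and 273 normalized counts in the control, more than ALOX12B. It was lower in Cl1 (log2 fold change -0.71, adjusted p = 0.00852, edgeR) and in Cl10 (-0.49, adjusted p = 0.024, edgeR). ALOX5, the enzyme that starts leukotriene synthesis in myeloid cells, had 1 read in each control library, 4 and 3 in Cl1 and 12 and 5 in Cl10, and did not pass the filter on low counts. The control libraries and 1 of the Cl1 libraries were at or under the floor of 3 counts. Without the filter, ALOX5 passed as higher in Cl10 (adjusted p = 0.0355, edgeR) and not in Cl1 (adjusted p = 0.625, edgeR), and against controls of 1 read the fitted fold change has no firm size.

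**Figure D3:**
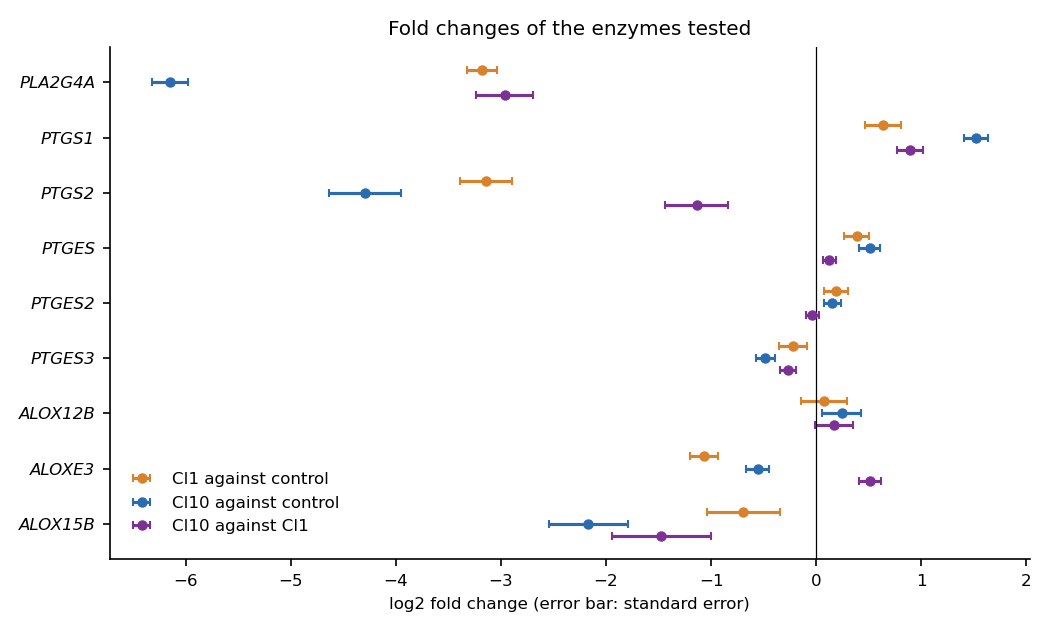
Log2 fold changes (x axis, error bars are standard errors) of the 9 enzymes that passed the filter on low counts, for Cl1 against control (orange), Cl10 against control (blue) and Cl10 against Cl1 (purple). PTGS2 lay at -3.14 and -4.29 against the control, PTGS1 at 0.63 and 1.52, and the prostaglandin E synthases between -0.49 and 0.51; PLA2G4A was picked for its fall and its points are a description.

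Apart from PLA2G4A, 8 of the enzymes could be tested against the control. In Cl1, 2 were higher (PTGS1 and PTGES), 2 were lower (PTGS2 and ALOXE3) and 4 did not pass, where 12.4% of the 20153 genes tested were higher and 12.8% lower at an adjusted p under 0.05 by edgeR's quasi-likelihood test (2489 and 2575 genes, or 1942 and 3191 with scaling by library size alone). In Cl10, 2 were higher (PTGS1 and PTGES), 4 were lower (PTGS2, PTGES3, ALOXE3 and ALOX15B) and 2 did not pass, where 20.6% of the 19875 genes tested were higher and 21.8% lower. Between the clones, again without PLA2G4A, 2 of 8 were higher in Cl10 (PTGS1 and ALOXE3), 3 were lower (PTGS2, PTGES3 and ALOX15B) and 3 did not pass, where 24.9% of all genes tested were higher and 24.1% lower. Without PLA2G4A the median log2 fold change was -0.07 in Cl1 and -0.17 in Cl10, against -0.01 over all genes tested in either clone. Counts of 2 to 4 among 8 enzymes are too small to be set against the shares of all genes.

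Per kilobase of exon, the order of the enzymes changed between the groups. In the control it ran from PTGES3 (95.0 RPKM) through PTGES (52.0 RPKM), PTGES2 (16.4 RPKM), PLA2G4A (7.55 RPKM), ALOXE3 (4.26 RPKM) and PTGS2 (2.25 RPKM) to PTGS1 (1.26 RPKM) and ALOX12B (1.23 RPKM), whose ranges overlapped, and then ALOX15B (0.214 RPKM) and ALOX5. In Cl1, PLA2G4A stood at 0.821 RPKM, under ALOX12B (1.28 RPKM) and above PTGS2 (0.250 RPKM), and ALOXE3 (2.02 RPKM) and PTGS1 (1.93 RPKM) overlapped. In Cl10, PTGES (73.2 RPKM) exceeded PTGES3 (67.0 RPKM), PTGS1 (3.57 RPKM) came next after PTGES2 (17.95 RPKM), and PTGS2 (0.115 RPKM) and PLA2G4A (0.106 RPKM) overlapped, as did ALOX15B (0.0461 RPKM) and ALOX5 (0.0413 RPKM). Each level is a mean of 2 libraries. The prostaglandin E synthases held the top 3 places in every group, and the enzymes that free and oxygenate arachidonic acid lay below all of them.

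PLA2G4A and PTGS2, the members with the largest falls, are neighbours in the genome. In hg38 with the GENCODE v44 annotation, PTGS2 (10 exons, minus strand) spans chr1:186671791-186680922 and PLA2G4A (18 exons, plus strand) spans chr1:186828949-186988981. Their 5′ ends lie 148 kb apart, they are transcribed away from each other, and no annotated gene lies wholly between them. PACERR, a long noncoding RNA on the opposite strand that overlaps the 5′ end of PTGS2, had 17 and 16 reads in the control, 10 and 0 in Cl1 and 0 in both Cl10 libraries. In Cl10 it was at least 4.87-fold lower than in the control, against a floor of 3 counts per library, and in Cl1 it did not pass the test (log2 fold change -1.68, adjusted p = 0.12, edgeR). Strand was not given for the counting, so PACERR and PTGS2 reads at the overlap cannot be told apart.

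The other tested genes around the pair did not share its falls in size. Of the 4 nearest on either side, 3 were higher and none lower in Cl1, and none was higher and 3 were lower in Cl10 by edgeR's quasi-likelihood test, with medians of 0.25 and -0.17. Over all genes tested, 12.4% were higher and 12.8% lower in Cl1, and 20.6% and 21.8% in Cl10. On the PTGS2 side, ODR4, at 250.4 kb, stood at 0.53 (log2 fold change) in Cl1 and 0.25 in Cl10, TPR, a nuclear pore protein gene, 0.30 and -0.07, HMCN1, an extracellular matrix gene, -0.42 and -1.82, and ENSG00000273004 1.41 and 0.68. On the PLA2G4A side the nearest tested gene was ENSG00000285280 at 5179 kb (-0.24 and -1.001), followed by ENSG00000236792 (-0.85 and -0.15), RGS2, a regulator of G protein signalling (0.50 and -0.56), and UCHL5, a deubiquitinase gene (0.21 and -0.19). Between the clones, ENSG00000236792 was not tested. Of the other neighbours, 6 were lower in Cl10, none was higher and ENSG00000273004 did not pass (-0.74), where 24.9% of all genes tested were higher and 24.1% lower. Over the 50 nearest tested genes the median was 0.37 in Cl1 and 0.11 in Cl10, so subtracting it made the fall of PLA2G4A in Cl1 -3.55.

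**Figure D4:**
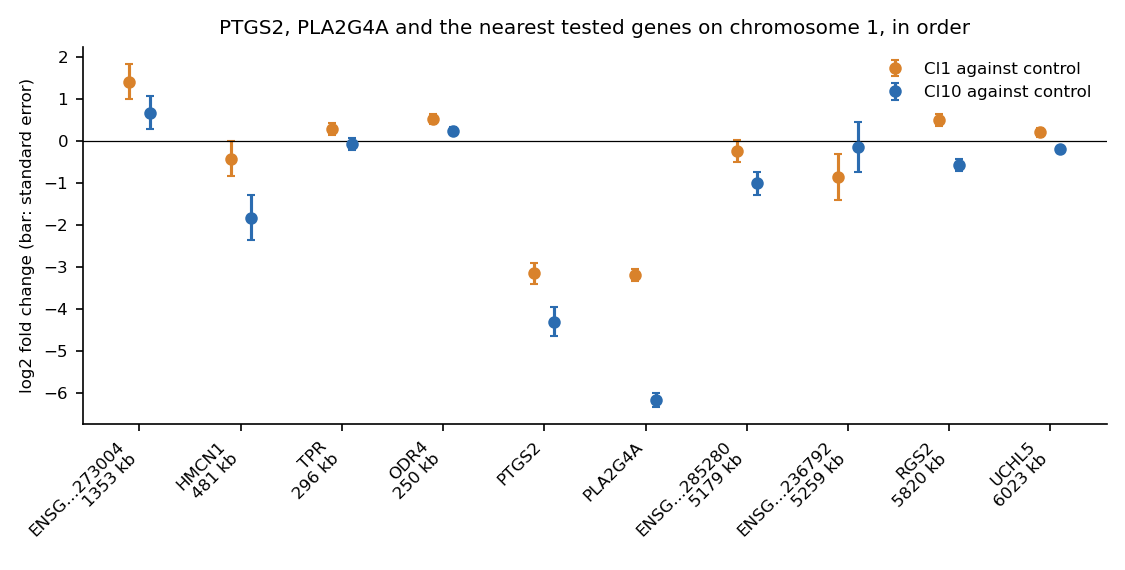
Log2 fold change against the control (y axis, error bars are standard errors) of PTGS2, PLA2G4A and the 4 nearest tested genes on either side, in chromosomal order and not to scale, for Cl1 (orange) and Cl10 (blue); numbers under the names are distances to the pair in kb, and 2 Ensembl identifiers on the right and 1 on the left are shortened. PTGS2 and PLA2G4A lay at -3.14 or below in both clones, whereas the neighbours lay between -1.82 and 1.41.

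To show the sequence upstream of these 3 genes at the head of the pathway, the 250 bases before each RefSeq start site (GRCh38.p14) are given 5′ to 3′ on the strand of the gene, with motif matches in capitals. The windows are chr1:186680424-186680673 (minus strand) for PTGS2, chr1:186828699-186828948 (plus strand) for PLA2G4A and chr9:122370283-122370532 (plus strand) for PTGS1. The RefSeq start of PTGS2 lies 499 bases from the GENCODE 5′ end used above, so its window falls inside the GENCODE span of the gene and partly overlaps PACERR. The motifs searched on both strands were the TATA box (TATAAA), the half-site of the cyclic AMP response element (TGACG), the AP-1 site (TGANTCA) and the E-box (CACGTG).
PTGS2: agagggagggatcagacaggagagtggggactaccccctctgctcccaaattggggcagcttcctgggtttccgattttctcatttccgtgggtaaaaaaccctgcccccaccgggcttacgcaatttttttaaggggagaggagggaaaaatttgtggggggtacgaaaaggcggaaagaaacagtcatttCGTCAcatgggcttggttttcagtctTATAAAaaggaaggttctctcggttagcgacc
PLA2G4A: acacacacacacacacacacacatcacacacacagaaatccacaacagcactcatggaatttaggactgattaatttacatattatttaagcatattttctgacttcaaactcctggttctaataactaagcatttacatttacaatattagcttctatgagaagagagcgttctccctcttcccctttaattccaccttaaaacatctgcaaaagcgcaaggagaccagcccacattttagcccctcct
PTGS1: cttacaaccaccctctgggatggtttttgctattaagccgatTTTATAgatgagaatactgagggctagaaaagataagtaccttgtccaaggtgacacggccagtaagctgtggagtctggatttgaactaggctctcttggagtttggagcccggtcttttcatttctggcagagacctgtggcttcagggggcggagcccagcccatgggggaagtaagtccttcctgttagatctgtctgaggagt
The PTGS2 window held TATAAA at positions -32 to -27, counted back from the start site, and the half-site on the opposite strand (CGTCA) at -58 to -54. The PTGS1 window held TATAAA on the opposite strand (TTTATA) at -208 to -203, and the PLA2G4A window held none of the 4 motifs. Among the 8 enzymes with a RefSeq window, 2 held TATAAA and 2 held TGACG, where 10.72% and 21.22% of 35116 windows of that length did, and none held TGANTCA or CACGTG, which 6.57% and 6.34% of windows did. A match is a run of letters, and no binding was measured here.

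ALOX15B, ALOX12B and ALOXE3 form a cluster on 17p13. ALOX15B lies at chr17:8039034-8049134 (plus strand), ALOX12B at chr17:8072636-8087716 and ALOXE3 at chr17:8095900-8119047 (both minus strand), with gaps of 23.5 kb and 8.18 kb. Within this cluster the genes did not move alike, since ALOXE3 fell in both clones, ALOX15B in Cl10 and ALOX12B passed in neither. Of the 27 other tested genes within 200 kb, 2 were higher and 8 lower in Cl1 (median log2 fold change -0.15), and 4 were higher and 10 lower in Cl10 (median -0.23). Over all genes tested, 12.4% were higher and 12.8% lower in Cl1, and 20.6% and 21.8% in Cl10. HES7, a transcriptional repressor of the HES family, fell most in both clones (-1.80 in Cl1, adjusted p = 2.37e-06, and -2.75 in Cl10, adjusted p = 3.61e-05, edgeR), and PER1, a circadian clock gene, fell by 0.83 and 0.55 on the log2 scale. GUCY2D, a retinal guanylate cyclase gene, fell by 0.68 and 1.11, and ENSG00000269947 had a log2 fold change of -2.14 in Cl10. In the other direction, RNF227 was higher in Cl10 (1.11) and KCNAB3, a potassium channel subunit gene, in Cl1 (0.82). ALOXE3P1, a pseudogene of ALOXE3 that could share reads with it, had log2 fold changes of 0.02 and 0.71 and did not pass in either clone.

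The remaining enzymes lie apart. PTGS1 (chr9:122370530-122395703), PTGES (chr9:129738331-129753042) and PTGES2 (chr9:128120693-128128462) are on chromosome 9, PTGES3 is at chr12:56663341-56688408 and ALOX5 at chr10:45374176-45446119. The median log2 fold change of the 50 nearest tested genes was 0.0046 in Cl1 and 0.12 in Cl10 around PTGS1, and 0.011 and 0.16 around PTGES. PTGES in Cl10 therefore lay 0.35 log2 units above its neighbourhood and 0.51 above the control.

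Of 11655 genes with a mean of at least 5 CPM, the 5 whose centred log2 CPM over the 6 libraries lay nearest to PLA2G4A by Euclidean distance were SLC6A15 (1.97), a neutral amino acid transporter gene, C6orf99 (2.01), the interferon-induced IFI27 (2.26), the hedgehog pathway factor GLI1 (2.69) and vimentin, VIM (2.70). The distance from PLA2G4A to PTGS2 was 2.12, the smallest among the enzymes, followed by ALOX15B at 4.12, while PTGS1 lay at 7.54. PTGS2 had a mean under 5 CPM and was not among the genes ranked, although it lay nearer than IFI27. SLC6A15 had 1022 and 943 normalized counts in the control, 93.8 and 93.4 in Cl1 and 28.4 and 63.2 in Cl10. VIM fell to a like level in both clones (log2 fold changes -5.12 and -5.45), whereas GLI1 had -1.25 in Cl1 and -3.45 in Cl10. The 6 libraries stand in 3 groups, so likeness over them rests mainly on the group means. PLA2G4A was picked for its fall, so a gene that fell far in the clones lies nearer to it by design. These distances are given as a description.

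The rest of the pathway was read from lists of genes by role. The counts in these lists stand beside 12.4% higher and 12.8% lower among all genes tested in Cl1, and 20.6% and 21.8% in Cl10. Of 20 other phospholipases A2, 10 could be tested in Cl1, where 2 were higher and 2 lower, and 9 in Cl10, where 2 were higher and 5 lower, with medians of -0.02 and -0.30. PLA2G4E, a group IV enzyme that acts as an N-acyltransferase, had 75.1 and 62.5 normalized counts in the control, 307 and 336 in Cl1 and 37.3 and 36.9 in Cl10. It thus rose in Cl1 (log2 fold change 2.23, adjusted p = 6.5e-06 by the edgeR quasi-likelihood test), fell in Cl10 (-0.88, adjusted p = 0.0264, edgeR) and differed between the clones by -3.10 (adjusted p = 9.12e-08, edgeR). PLA2G4F rose in both clones (2.01 and 1.61), from 143 and 120 normalized counts in the control to between 369 and 556 in the clone libraries. PLA2G6, the calcium-independent phospholipase A2, fell in Cl10 (-1.25) and did not pass in Cl1 (-0.31), and PLA2G4B did likewise (-1.10 and -0.39).

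The other prostanoid synthases, the receptors and the leukotriene enzymes held no change above 2-fold against the control that passed the test. Of 5 tested other prostanoid synthases, none passed in Cl1 and 2 were higher in Cl10, AKR1B1, an aldo-keto reductase with prostaglandin F synthase activity (log2 fold change 0.67), and PRXL2B (0.32). Of 6 other lipoxygenase and leukotriene genes, 2 were higher in Cl1, MGST3, a microsomal glutathione transferase gene (0.78), and GGT1, which cleaves leukotriene C4 (0.51), while in Cl10 GGT1 was higher (0.30) and LTA4H, the leukotriene A4 hydrolase gene, was lower (-0.54). ALOX12, the platelet-type 12-lipoxygenase, held 62.9% to 75.5% of the lipoxygenase RPKM in every library and passed in neither clone (0.05 and -0.04). The partner of ALOX5, ALOX5AP, had 1 read in 1 Cl1 library and 0 in the other five. Of the receptors, 7 could be tested in Cl1 and none passed, and 6 in Cl10, where the prostaglandin E2 receptor PTGER4 was higher (0.44) and the leukotriene B4 receptor LTB4R lower (-0.25).

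The largest difference between the clones among the genes of prostaglandin breakdown and transport was in HPGD. HPGD, the dehydrogenase that inactivates prostaglandin E2, had 303 and 317 normalized counts in the control, 386 and 487 in Cl1 and 25.5 and 22.6 in Cl10. It rose in Cl1 (log2 fold change 0.51, adjusted p = 0.0375 by the edgeR quasi-likelihood test), fell in Cl10 (-3.66, adjusted p = 5.42e-05, edgeR) and differed between the clones by -4.16 (adjusted p = 2.44e-08, edgeR). Of the 7 tested genes of this list, 1 was higher and none lower in Cl1, and 3 were higher and 3 lower in Cl10. The genes higher in Cl10 were ABCC4, an exporter of prostaglandins (0.73), SLCO2A1, the prostaglandin uptake transporter (0.69), and the reductase PTGR3 (0.55).

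Among 12 tested genes of arachidonate supply and reacylation, 4 were higher and 2 lower in Cl1, and 6 were higher and 1 lower in Cl10, with medians of 0.08 and 0.46. FADS2, the delta-6 desaturase at the start of arachidonate synthesis, had 923 and 1036 normalized counts in the control, 1923 and 1703 in Cl1 and 2930.2 and 2882 in Cl10, and rose in both clones (log2 fold changes 0.90 and 1.59). FADS1, the delta-5 desaturase, rose by 0.56 and 0.81, and LPCAT3, which returns arachidonate to phospholipids, by 0.58 and 0.49. MGLL, the monoacylglycerol lipase that frees arachidonate from 2-arachidonoylglycerol, was higher in Cl10 (1.23) and did not pass in Cl1 (-0.34). The diacylglycerol lipase gene DAGLB, a step before MGLL, was lower in both (-0.42 and -0.85).

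Of 6 tested genes of the epoxygenase route, by which cytochromes P450 make epoxides of arachidonic acid, 1 was higher and 3 lower in Cl1, and 2 were higher and 2 lower in Cl10. CYP1B1, which also oxidizes estrogens and aromatic hydrocarbons, fell from 9341 and 7342 normalized counts in the control to 3897 and 5426 in Cl1 and 1648 and 1737 in Cl10 (log2 fold changes -0.82 and -2.28). CYP1A1 fell by 1.17 and 0.51 on the log2 scale, and EPHX1, the microsomal epoxide hydrolase, rose by 1.23 and 0.80. Of the epidermal barrier lipid genes, which act around ALOX12B and ALOXE3, 12 were tested in Cl1 with 5 higher and none lower, and 13 in Cl10 with 4 higher and 3 lower. ABCA12, the transporter that loads lamellar granules, rose in both clones (1.03 and 1.50), SDR9C7, which oxidizes the product of the lipoxygenase pair, rose in Cl1 (1.99) and had 0.04 in Cl10, and TGM1, which ties lipids and proteins to the cornified envelope, rose in Cl1 (0.60) and fell in Cl10 (-0.83). PNPLA1, which makes the acylceramide that ALOX12B and ALOXE3 work on, was tested in Cl10 only among the comparisons with the control and was higher there (2.06, from 3.41 and 4.31 to 16.7 and 15.5 normalized counts).

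**Figure D5:**
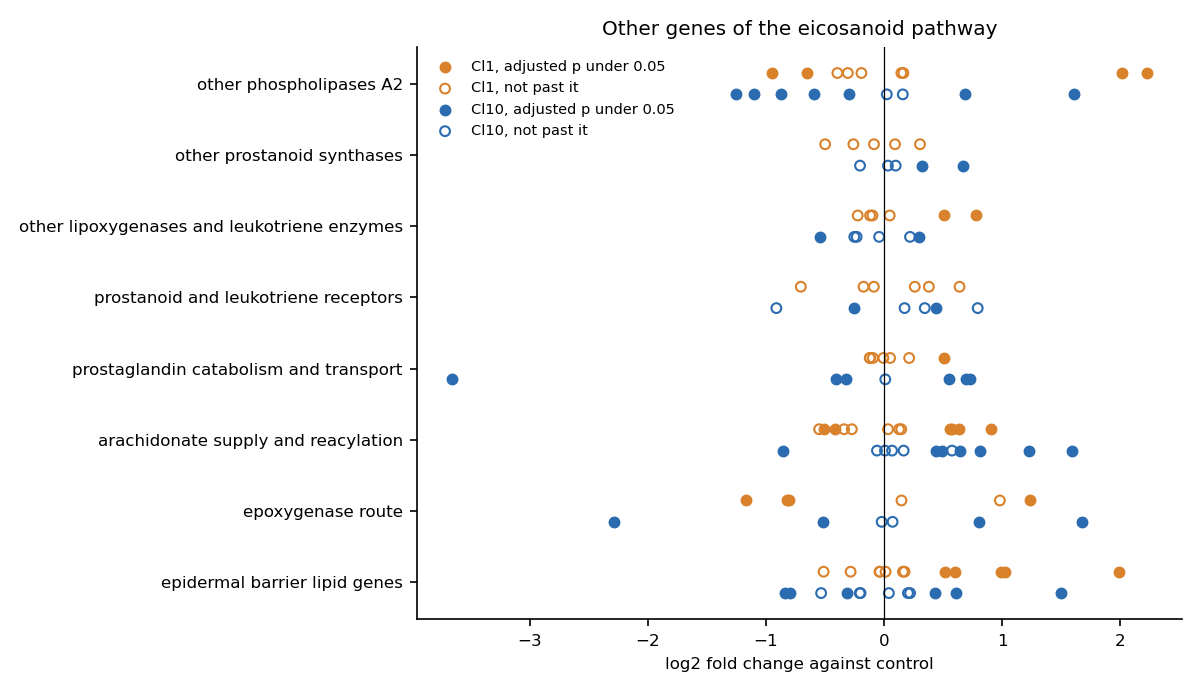
Log2 fold change against the control (x axis) of genes of 8 lists of the eicosanoid pathway, for Cl1 (orange) and Cl10 (blue). Each point is 1 gene tested in both clones, and genes tested in 1 clone only, such as PNPLA1, are not drawn. Filled points passed an adjusted p of 0.05 in edgeR's quasi-likelihood test. The lowest point is HPGD in Cl10 (-3.66) and the highest is PLA2G4E in Cl1 (2.23).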

How the data were processed

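RNA was sequenced from 6 A253 libraries, 2 each of control, Cl1 and Cl10. The authors prepared poly(A)-selected, paired-end libraries, aligned them to hg38 with HISAT2 and deposited raw HTSeq counts for 58735 genes. The submitters' processing notes also name StringTie and DESeq. Versions, annotation, strand setting and the treatment of reads matching several genes are not given in the sources used here. Columns were matched to samples by clone or control letter and replicate digit. The series has a second dTomato control pair, and the control columns were taken as the pair of the DUSP1 experiment because they stand in its count table, which the labels do not spell out. The SOX2 libraries of the series were not used here.

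Counts were tested with edgeR 4.0.16 in R 4.3.3 (filterByExpr, TMM, glmQLFit, glmQLFTest), each comparison with its own libraries, Benjamini-Hochberg over all genes tested and a threshold of 0.05. Standard errors were derived from the F statistic. DESeq2 1.42.0, other scalings and filters, a fit over 6 libraries, a replicate block and leaving out each library were alternatives. The code was tested on simulated data. Of the identifiers, 58207 were found in GENCODE v44, which gave positions and exon lengths, and RefSeq (GRCh38.p14) gave promoters for 8 enzymes. PLAAT3 and PTGR3 were matched through older symbols. The genes named are the 10 enzymes, DUSP1, the list genes past 2-fold in a clone (at most 4 a list), the 4 nearest tested genes on either side of PTGS2 and PLA2G4A, those within 200 kb of the lipoxygenase cluster and the 5 most like PLA2G4A; other list genes and ALOXE3P1 were named after their values were seen. A gene of the epoxygenase list is not reported here by name. The enzymes, lists and alternatives were chosen with earlier results of these data known. Of same-numbered libraries, deviations from the group means correlated at -0.068, -0.018 and 0.010 over 20582 genes, so no deviation shared by replicate number was seen. Whether same-numbered libraries were cultured or prepared together cannot be told from these values.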

Additional observations from a re-analysis of the deposited data

Results flagged for a closer look

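For 5 enzymes the effects in the 2 clones differed by the test of Cl10 against Cl1 itself (edgeR's quasi-likelihood test, adjusted p under 0.05, 2 libraries per clone). PTGS1 was higher in Cl10 by 0.90 log2 units and ALOXE3 by 0.51. PTGS2 was lower in Cl10 by a log2 fold change of -1.14, PTGES3 by -0.27 and ALOX15B by -1.47. The ALOX15B difference did not pass in DESeq2. That of PTGES3 turned to 0.13 with the median of the 50 nearest genes subtracted. For PTGS1, PTGS2, PTGES3 and ALOX15B the clone with the larger change from the control was Cl10, and for ALOXE3 it was Cl1. DUSP1 itself was higher in Cl10 than in Cl1 (log2 fold change 0.48), and whether the enzymes follow its level was not tested. As 24.9% and 24.1% of all genes tested were higher or lower between the clones, a difference of this kind was common among genes.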

How the results depend on the processing

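With an absolute log2 fold change above 1 also required, 861 genes were higher and 659 lower in Cl1, 1188 and 1479 in Cl10, and 886 and 1245 between the clones. Of the enzymes without PLA2G4A, 0 were then higher and 2 lower in Cl1, and 1 was higher and 2 were lower in Cl10. Between the clones, PLA2G4A counted, 0 were higher and 3 lower, against 2 higher and 4 lower without that requirement. PLA2G4A was 1 of the lower enzymes in both counts. Its log2 fold change between the clones lay between -3.19 and -2.61 under every alternative, so each count that includes it holds this 1 lower enzyme. Leaving out 1 library at a time, where the lone library left in a group is assumed to vary like the others, gave 1444 to 3565 genes higher and 1257 to 3581 lower in Cl1 (fewest without a Cl1 library), 2376 to 5914 and 2765 to 5974 in Cl10 (fewest without a Cl10 library), and 3598 to 5451 and 3642 to 5241 between the clones. The enzymes then higher numbered 0 to 2 and lower 2 to 3 in Cl1 (0 higher without Cl1 replicate 2), 1 to 3 and 2 to 4 in Cl10 (2 lower without Cl10 replicate 1), and, PLA2G4A counted, 2 to 4 and 1 to 3 between the clones (4 higher without Cl1 replicate 1, 1 lower without Cl10 replicate 1). With a replicate block, 1 enzyme was higher in Cl1, since PTGES no longer passed, as with scaling by library size alone (also 1), and the replicate block changed no other call of an enzyme. Without the filter on low counts 3 enzymes were higher in Cl10, ALOX5 added. Signs turned for ALOX12B in Cl1 (-0.0029 by library size alone, -0.24 to 0.34 without a library), for ALOX12B between the clones (-0.075 to 0.48 without a library), for PTGES2 between the clones (0.036 by library size alone, -0.095 to 0.011 without a library) and for SDR9C7 in Cl10 (-0.12 to 0.22 without a library). With the median of the 50 nearest genes subtracted, they turned for PTGES3 in Cl10 (0.042) and, between the clones, for PTGES3 (0.13) and PTGES (-0.011). PTGES2 in Cl10 passed without control replicate 2 (0.19) and PTGES3 in Cl1 without control replicate 1 (-0.29). PTGES3 between the clones did not pass in 1 fit over 6 libraries (-0.27) or without either Cl10 library. The falls of PTGS2 in both clones (-3.51 to -2.71 and -4.67 to -3.86) and the rise of PTGS1 in Cl10 (1.40 to 1.64) kept their direction and passed wherever tested. The causes were not tested beyond the smaller number of libraries. Depth limits ALOX5, ALOX15B and PACERR.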
